A study of Caenorhabditis elegans with 4 samples.

Results

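The 80 genes described here are the histone genes of Caenorhabditis elegans, taken as every protein-coding gene of the Ensembl WBcel235 annotation named his- or hil- with a number, out of 19973 protein-coding genes on the 6 nuclear chromosomes. The data come from chromatin immunoprecipitation with sequencing, which recovers DNA bound by a protein of interest, in whole hermaphrodites at the late embryonic stage, of unknown age. The strain, OP372 (unc-119(tm4063) III; wgIs372), carries an integrated transgene that makes K09A11.1, a protein with a BED-type zinc-binding domain, with GFP and FLAG joined to its C terminus, and the antibody was raised against GFP. Each of 2 biological replicates was sequenced as 2 technical libraries, which makes 4 libraries of a single group with no comparison group, so every value describes where the tagged protein was recovered and none compares conditions. What drives the transgene is not stated in the labels, and in whole embryos the cells that gave a region cannot be told apart. The lists of regions hold no read counts, so the depth of each library, and with it the error of a single signal value, is unknown.

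Histones are the small basic proteins around which DNA is wrapped. A pair each of H2A, H2B, H3 and H4, the core histones, forms the nucleosome, and the linker histone H1 binds the DNA between nucleosomes. Most core histone genes of animals are read during DNA replication, lie in clusters of near-identical copies, and give messages that end in a short hairpin in place of a poly(A) tail. Replacement variants such as H3.3 are made outside replication from genes whose messages are polyadenylated. In C. elegans the embryo divides mostly in the first part of embryogenesis, so the late embryo is a stage at which few cells replicate their DNA.

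By the product names and, for 2 short proteins, the closest match, the 80 genes comprise 9 of H1, 17 of H2A, 17 of H2B, 21 of H3 and 16 of H4. The 2 short proteins are his-73, with 46 residues closest to H3, and his-39, with 67 residues closest to H2B. A hairpin of 6 paired bases and a loop of 4 bases, starting with GG and lying within 150 bases after the stop codon, was found at 57 core genes, which are called replication-linked here. Only 79 of the 19973 protein-coding genes (0.396%) hold any such hairpin, and the commonest form occurs at 0 genes outside the histones. The common form stands at 53 of the 57 genes and the second form at 4, on chromosome V. They are shown because they define the replication-linked class, as DNA of the gene's strand with the paired stem in capitals.
common form: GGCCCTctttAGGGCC
second form: GGCCCTcttaAGGGCC
The remaining genes are 9 other core genes without a perfect hairpin (his-19, his-35, his-37, his-39, his-41, his-47, his-53, his-68 and his-73), 5 of H3.3 type (his-69, his-70, his-71, his-72 and his-74) and the 9 linker genes his-24 and hil-1 to hil-8. Of the other core genes, his-19, his-39, his-53 and his-68 differ from the common hairpin at 1 base and his-47 and his-73 at 2 bases, whereas his-35, his-37 and his-41 differ at 7 to 9 bases and hold no recognisable copy. Among the genes of H3.3 type, which were classed by name, his-69 also differs from the common hairpin at only 1 base.

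For each gene the promoter window ran from 1000 bp upstream to 200 bp downstream of each annotated 5' end, and the region with the highest signal and its summit inside that window was taken. A thresholded peak is a region of the list that the submitters kept for reproducibility between the replicates. A ranked region is one of the 30000 regions in the list made from both replicates together (the pooled list), of which the thresholded list holds the 689 of highest signal. Thresholded peaks were found at 4 of the 80 histone genes, and 2.49% of all protein-coding genes had one. Ranked regions of the pooled list were found at 32 of the 80 histone genes, or 40%, against 42.2% of all protein-coding genes, and a ranked region in both replicate lists at 20, against 23.6% of all genes. The share of histone genes with a ranked region therefore lay close to that of all genes. Signal values are the authors' own. Where a region was present the median signal was 18.0 over the 32 histone genes, with a range of 7.15 to 74.4, and 11.0 over all genes with one. A region shared by several genes counts for each of them in these medians. No region in any of the lists was found at 42 of the 80 genes. The same share over all protein-coding genes is not given here, so this count cannot be called high or low.

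**Figure D1:**
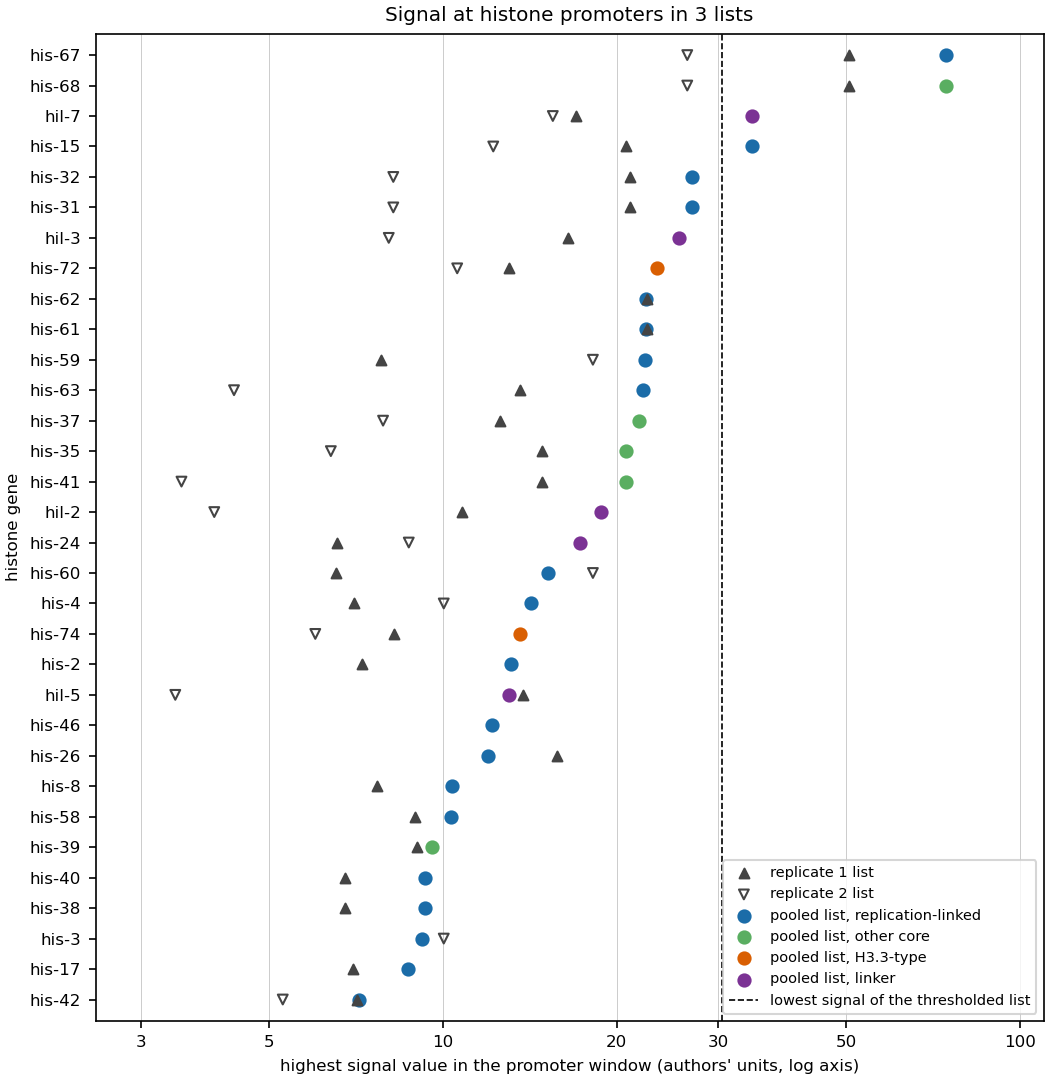
Highest signal value in the promoter window (horizontal log axis, authors' units) of each of the 32 histone genes with a ranked region in the pooled list (filled circles, coloured by class), with the values of the replicate 1 list (triangles) and the replicate 2 list (open triangles) where present. The dashed line is the lowest signal of the thresholded list, 30.4; his-67, his-68, hil-7 and his-15 lie to its right.

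The regions at histone promoters show what sequence was recovered. The windows from 50 bp before to 50 bp after the summit of the pooled list are given on the gene's strand, 5' to 3', in build WBcel235 (ce11), for 5 genes whose summit window holds the word ATGTGTCC on either strand, which is in capitals, and for the linker genes hil-7 and hil-3, the linker genes of highest signal, whose summit windows lack it. The word was chosen after these windows had been read.
his-31 (H4), chrIV:8334087-8334187, minus strand: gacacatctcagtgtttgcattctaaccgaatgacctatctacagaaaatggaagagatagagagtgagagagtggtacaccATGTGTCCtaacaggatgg
his-62 (H2B), chrIV:7486377-7486477, plus strand: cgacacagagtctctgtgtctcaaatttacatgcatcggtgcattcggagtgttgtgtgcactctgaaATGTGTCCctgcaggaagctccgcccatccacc
his-37 (H4), chrV:9546961-9547061, plus strand: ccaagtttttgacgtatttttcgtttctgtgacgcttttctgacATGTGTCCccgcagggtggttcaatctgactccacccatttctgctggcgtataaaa
hil-2 (H1), chrIV:6294111-6294211, plus strand: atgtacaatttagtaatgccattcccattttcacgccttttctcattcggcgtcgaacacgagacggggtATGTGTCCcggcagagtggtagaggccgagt
his-3 (H2A), chrV:16040614-16040714, plus strand, word on the opposite strand: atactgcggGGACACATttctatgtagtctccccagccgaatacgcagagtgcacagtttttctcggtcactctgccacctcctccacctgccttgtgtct
hil-7 (H1), chrIV:6646137-6646237, plus strand: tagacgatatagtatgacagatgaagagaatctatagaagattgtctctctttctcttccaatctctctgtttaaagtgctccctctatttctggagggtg
hil-3 (H1), chrX:8158991-8159091, plus strand: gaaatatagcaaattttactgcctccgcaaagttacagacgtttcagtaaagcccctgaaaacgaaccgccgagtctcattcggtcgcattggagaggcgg
These windows span an H2A, an H2B, 2 H4 and 3 linker genes, and the word stands upstream of the gene in each of the 5 that hold it.

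In the promoters from 250 bases upstream to 50 downstream of the 5' end, ATGTGTCC on either strand was present at 47 of the 80 histone genes (58.75%) and at 157 of all 19973 genes (0.786%), which include these 47. It was present at 38 of 57 replication-linked genes, 5 of 9 linker genes, 3 of 9 other core genes and 1 of 5 genes of H3.3 type. Many histone promoters are copies of each other, so these are not independent occurrences: 36 of the genes share all 200 bases upstream of the 5' end with another, in 13 groups. The word was found in promoters of all 4 core types, at 9 of 12 replication-linked H2A genes, 10 of 15 of H2B, 9 of 15 of H3 and 10 of 15 of H4. A word between neighbouring genes read away from each other can lie in both promoters and is then counted for both. The place at -235 from his-61, for example, is the place at -100 from his-62. The counts of H2A and H2B, and those of H3 and H4, are therefore not separate. Counted for each gene, the 57 places of the word had a median of -130 from the 5' end. A place shared by neighbouring genes thus enters this median from each of them. In the linker genes the word lay at -59 in hil-2, hil-4 and hil-5, at -61 in his-24 and at -74 in hil-3. At the summits themselves the word was rarer. It was present in the summit window of 6 of the 36 distinct pooled summits in histone promoter windows, and of 62 of the 29938 other nuclear summits (0.207%). A match is a string of letters and not a binding site, and its occurrence at summits was not tested.

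Other short sequences were looked up in the promoters and at the summits. The letters TATAAA, as in a TATA box, were present on either strand in the 300-base promoters of 63.75% of histone genes and 37.9% of all genes. The letters CCAAT were present in 53.75% and 45.5%. Another 3 words, chosen with earlier results of these data known, were looked up as well. CGCGCA was present in 5% of histone promoters and 6.08% of all promoters. For GCGCAC the shares were 15% and 5.60%. For CGAACC they were 2.5% and 3.86%. Copied promoters, and sequence shared by neighbouring genes, count here for each gene, so the shares of histone promoters are not of independent promoters. In the summit windows the shares were taken over the 36 distinct histone summits and over all 29974 nuclear summits of the pooled list. TATAAA was present in 11.11% and 12.4%, and CCAAT in 33.3% and 19.8%. CGCGCA was present in 8.33% and 2.21%. For GCGCAC the shares were 5.56% and 2.25%. For CGAACC they were 11.11% and 1.95%, which is 4 of the 36 histone summits. In the summit windows of his-26 and his-63 the match lies next to the common hairpin of the partner gene, in the same copied stretch. Those matches are therefore not independent and lie beyond the 3' end of a histone gene. For these words the shares at summits and in promoters thus did not have the same order in every case, and neither was tested. No overlap between these words was removed.

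**Figure D2:**
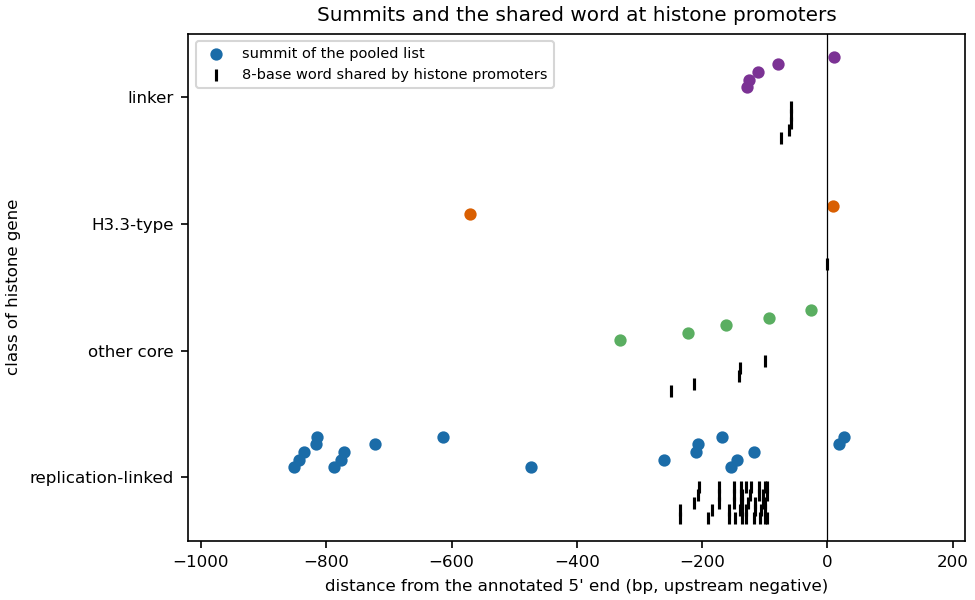
Position of the pooled summit (circles, 1 for each of the 32 genes) and of the word ATGTGTCC (vertical ticks, 57 places) relative to the annotated 5' end (horizontal axis, bp, upstream negative), by class of histone gene. A summit or place shared by neighbouring genes is drawn for each of them. Linker summits lie between -128 and 11, and of the 20 replication-linked summits 10 lie more than 500 bp upstream. Of all protein-coding genes with a ranked region 32.7% have the summit that far upstream.

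The highest signal at any histone gene lay between his-67, an H4 gene, and his-68, an H2A gene without a perfect hairpin, which are read away from each other. The region covered chrI:9988800-9989139 with its summit at 9988970, between the genes, 207 bp upstream of his-67 and 162 bp upstream of his-68. Its signal was 74.4 in the pooled list (rank 129), 50.6 in the replicate 1 list (rank 128) and 26.5 in the replicate 2 list (rank 138). It was therefore placed alike by rank in both replicates. The window of alg-5, an Argonaute gene, also holds this summit, so the region cannot be given to 1 gene.

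The other thresholded peaks were at the linker gene hil-7 and near the H2B gene his-15. The hil-7 region, chrIV:6646017-6646356, was centred 125 bp upstream. Its signal was 34.4 in the pooled list, 17.0 in replicate 1 and 15.5 in replicate 2. A noncoding gene, C01B10.45, is annotated within 200 bp of that summit. The his-15 region, chrII:13817365-13817704, had signals of 34.3, 20.7 and 12.2 in the same lists. Its summit lay 836 bp upstream of his-15 in an exon of ZK131.11, 225 bp beyond the 3' end of his-16, the H2A gene that is paired with his-15. Only 3 distinct summits therefore stand behind the 4 genes, and that of his-15 lies outside the sequence between his-15 and his-16.

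The next highest histone promoters fell below the lowest thresholded signal of 30.4. His-31 (H4) and his-32 (H3) shared a region between them, 154 and 168 bp upstream, with 27.1 in the pooled list, 21.1 in replicate 1 and 8.20 in replicate 2. The linker gene hil-3 had 25.7, 16.5 and 8.06, with the summit 128 bp upstream. The H3.3 gene his-72 had 23.5, 13.0 and 10.6, with the pooled summit 8 bp inside the annotated 5' end. The replicate 1 summit of his-72 stood 417 bp downstream of its nearest 5' end, inside the window of another 5' end of the gene, and that of replicate 2 at 8 bp. All 3 promoters were thus listed in both replicates and missed the thresholded list.

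The H2A and H2B pair his-61 and his-62 differed between the replicates. Their shared region had 22.5 in the pooled list and 22.6 in replicate 1, and no region was listed there in replicate 2. The neighbouring H4 and H3 pair his-60 and his-59 was listed in both replicates, with the higher signal in replicate 2. The window of his-59 held 22.4 in the pooled list, 7.82 in replicate 1 (rank 12566) and 18.2 in replicate 2 (rank 294). The replicate summits stood at -471 and -362 bp from the 5' end of his-59, so the ranks are not those of a single summit. The pooled summit lay 474 bp upstream of his-59, in the exon of his-60. The highest region of his-60 itself had 15.2 in the pooled list with its summit 18 bp inside the gene. The 689 highest regions of replicate 1 held 7 histone genes, namely his-67, his-68, his-15, his-61, his-62, his-31 and his-32. Those of replicate 2 held 5, namely his-67, his-68, hil-7, his-60 and his-59. Only his-67 and his-68 were in both sets.

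Across the 20 genes listed in both replicates the median signal was 13.7 in replicate 1, with a range of 6.53 to 50.6, and 8.20 in replicate 2, with a range of 3.44 to 26.5. Replicate 1 had the higher value at 16 of the 20 genes. The whole lists differ in scale, from 5.14 to 400 in replicate 1 and from 2.73 to 164 in replicate 2. A higher value in replicate 1 is therefore not a trait of these genes. The summits of the replicates lay within 100 bp of each other at 9 of the 20. Spearman's rho between the lists over these genes was 0.19, a description of genes that share regions, sequence and 1 control. Another 12 genes were listed in replicate 1 alone of the replicates and 5 in replicate 2 alone, and his-46 was listed only in the pooled list.

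**Figure D3:**
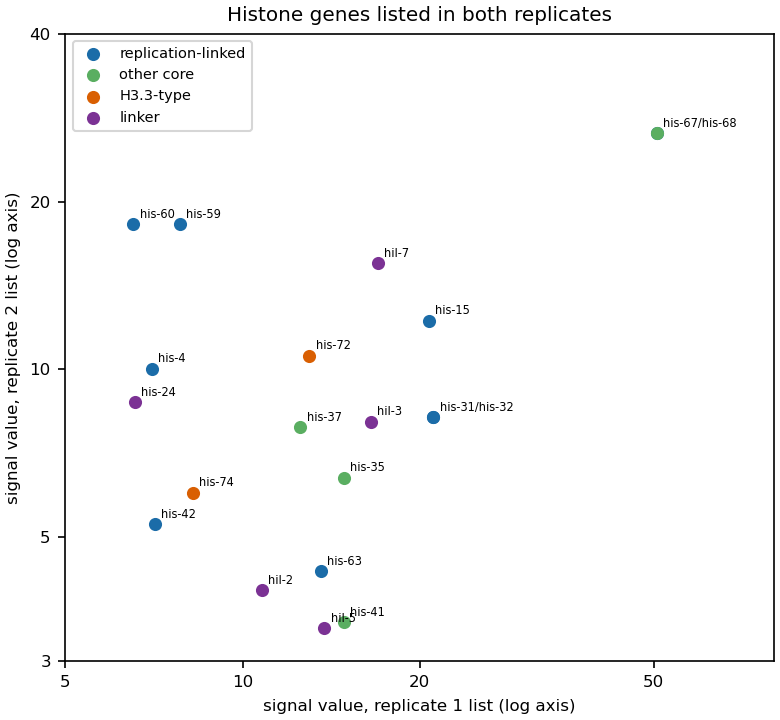
Signal value in the replicate 1 list (horizontal log axis) against the replicate 2 list (vertical log axis) for the 20 histone genes with a region in both, coloured by class, with genes of 1 shared region labelled together. His-67 and his-68 have the highest value in both lists, at 50.6 and 26.5, and the other genes show little common order.

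By type, ranked regions of the pooled list were found at 5 of 9 H1 genes, 4 of 17 H2A, 7 of 17 H2B, 9 of 21 H3 and 7 of 16 H4. By class they were found at 20 of 57 replication-linked genes, 5 of 9 other core genes, 2 of 5 genes of H3.3 type and 5 of 9 linker genes. Over all protein-coding genes the share was 42.2%, and 43.3% where at most 50% of the window was sequence repeated in the genome. The median signals of the genes listed were 13.7, 20.7, 18.5 and 18.8 in that order. Of replication-linked genes with windows at most 50% repeated, 14 of 17 were listed, with a median of 18.7. Of those with more repeated windows, 6 of 40 were listed, with a median of 11.2. All windows of the H3.3 type and linker classes were at most 50% repeated, as were 6 of the 9 windows of the other core genes. Both the linker histones, which compact chromatin, and the core histones were thus represented. The differences in share and in median signal were not tested.

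Among the linker genes, hil-7, hil-3, hil-2, his-24 and hil-5 had regions in all 3 ranked lists. Hil-2 had 18.8 in the pooled list, 10.8 in replicate 1 and 4.02 in replicate 2. His-24, which encodes H1.1, had 17.3, 6.56 and 8.73, with the summit 11 bp inside the gene. Hil-5 had 13.0, 13.8 and 3.44. The median distance of the 5 linker summits from the 5' end was -111 bp, and all 5 lay between 128 bp upstream and 11 bp downstream, so none was far from its gene. Hil-4 was listed in replicate 1 alone with 5.87, hil-6 in replicate 2 alone with 6.15, and hil-1 and hil-8 in no list.

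Of the genes of H3.3 type only his-72 and his-74 had a region. His-74 had 13.6 in the pooled list, 8.24 in replicate 1 and 6.01 in replicate 2, with the pooled summit 571 bp upstream. His-71, the other gene annotated as H3.3 proper, and the H3.3-like his-69 and his-70 were in no list. At most 13.3% of the 32-base words in the window of any of the 5 genes recurred elsewhere in the genome.

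The other core genes with no hairpin copy form 1 group on chromosome V, where his-35 (H2A) and his-41 (H2B) are read away from each other and his-37 (H4) lies next to them. The region between his-35 and his-41 had 20.7 in the pooled list, with its summit 26 bp upstream of his-35 and 222 bp upstream of his-41, and is shared with C50F4.6. His-41 had 14.9 in replicate 1 and 3.52 in replicate 2 there. His-37 had its own region 94 bp upstream, with 21.9, 12.5 and 7.88. All 3 genes were listed in both replicates, and 1.61% of the 32-base words of this group recur elsewhere in the genome. Of the remaining other core genes, his-39 had 9.58 in the pooled list and 9.02 in replicate 1 only, and his-73, his-47, his-53 and his-19 were in no list.

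The replication-linked genes mostly carry sequence that is not unique, which bears on what a list of regions can show. Repeats were measured as the share of 32-base words of a window that occur more than once in the genome, since a short read from such a word has more than 1 place to align. How the submitters treated such reads is not given in the sources used here. Windows were over 50% repeated at 43 of the 80 histone genes and at 605 of all 19973 genes. Of these 43 histone genes 6 had a ranked region, or 14.0%, against 4.3% of all genes with such windows. Of the other 37 histone genes 26 had one, or 70.3%, against 43.3% of all genes with windows at most 50% repeated. Within the replication-linked class the counts were 6 of 40 and 14 of 17. Among the 28 histone genes with windows over 95% repeated, 0 had a region in any of the lists. The near-equal shares of histone genes and all genes thus combined 2 unlike sets of windows, and whether repeats set the missing regions was not tested.

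**Figure D4:**
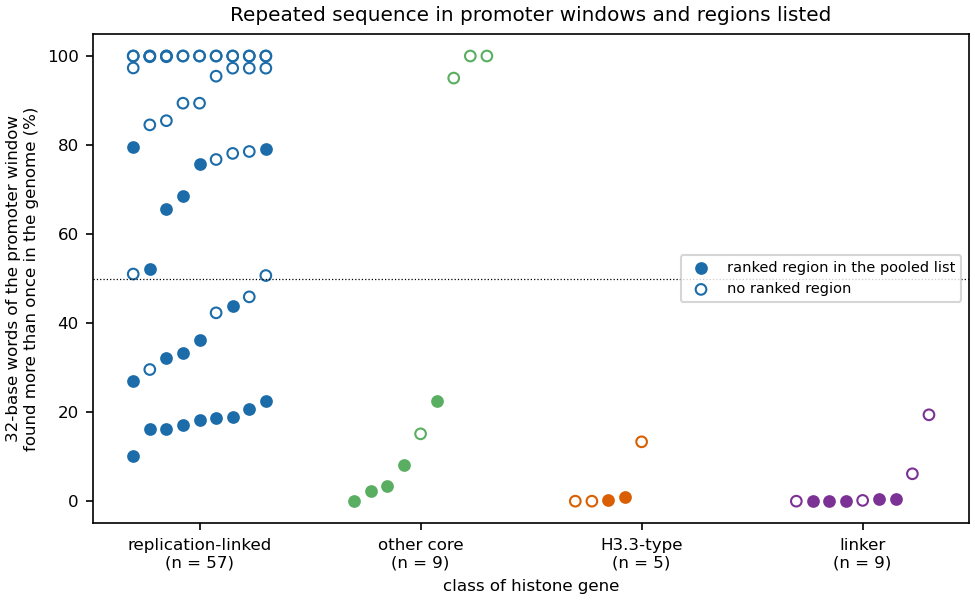
Share of 32-base words of the promoter window found more than once in the genome (vertical axis, percent) for each of the 80 histone genes by class, filled where the pooled list has a ranked region and open where it has none. The dotted line marks 50%. Of the genes above it 6 of 43 are filled, and of those below it 26 of 37.

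The summits themselves lay mostly in unique sequence. Of the 36 distinct pooled summits in histone promoter windows, 0 had a summit window over 50% repeated, and 1 of 29 in the replicate 2 list did. The most repeated pooled summit windows were close to that limit, at 50% for his-63 and 48.6% for the summit in his-60. The same share over all pooled summits is not given here. The 6 genes with repeated windows and a region had summits at a median of 781.5 bp upstream, and 0 of them lay within 300 bp upstream. Over all 32 genes the median distance was -208.5 bp, 15 lay within 300 bp upstream and 11 lay more than 500 bp upstream. Over all protein-coding genes with a ranked region the median was -307 bp. Of those genes 35.4% had the summit within 300 bp upstream and 32.7% more than 500 bp upstream, so far summits were not particular to histone genes. Of the 11 far summits, 8 lay within 300 bp of the 3' end of a histone gene, in each case the partner that is read away from the gene in question. The H3 gene his-63 is an example, with 22.2 in the pooled list, 13.6 in replicate 1 and 4.34 in replicate 2, and a summit 613 bp upstream that is 47 bp beyond the 3' end of his-64. The others were his-15, his-26, his-46, his-8, his-17, his-4 and his-2, whose summits stood 88 to 267 bp beyond the partner's 3' end. The window of 1000 bp reaches across the partner and past its end at such pairs, so a region there counts for a gene on the far side. With this layout nearly any summit far upstream of such a gene falls near the partner's 3' end. The 8 of 11 is therefore a matter of layout, and no share over other pairs is given beside it.

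By cluster, defined as neighbouring 5' ends at most 10 kb apart, 67 of the genes fell into 14 clusters and 13 stood alone. The longest, on chromosome II, holds 13 genes from his-16 to his-42 in 10938 bp, is 93.1% repeated and held 1 pooled summit, with a signal of 12.0. The clusters of 6 genes (his-49 to his-54) and of 8 genes (his-17 to his-22, his-27 and his-28) on chromosome V are 100% and 99.1% repeated and held 0. The cluster of his-45 to his-48 on chromosome IV is 96.9% repeated and also held 0. By contrast the 4 genes his-59 to his-62 in 2826 bp of chromosome IV are 20.6% repeated and held 3 summits, and his-35, his-37 and his-41 in 2949 bp held 4. The cluster of his-29 to his-34 shows both states, with 50.9% of its words repeated and 3 summits, all in its less repeated middle around his-31 and his-32. Low repeat content did not always go with a summit, since his-69 and his-70 share a cluster that is 2.14% repeated and held 0. The nuclear genome held 0.299 pooled summits per kb.

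**Figure D5:**
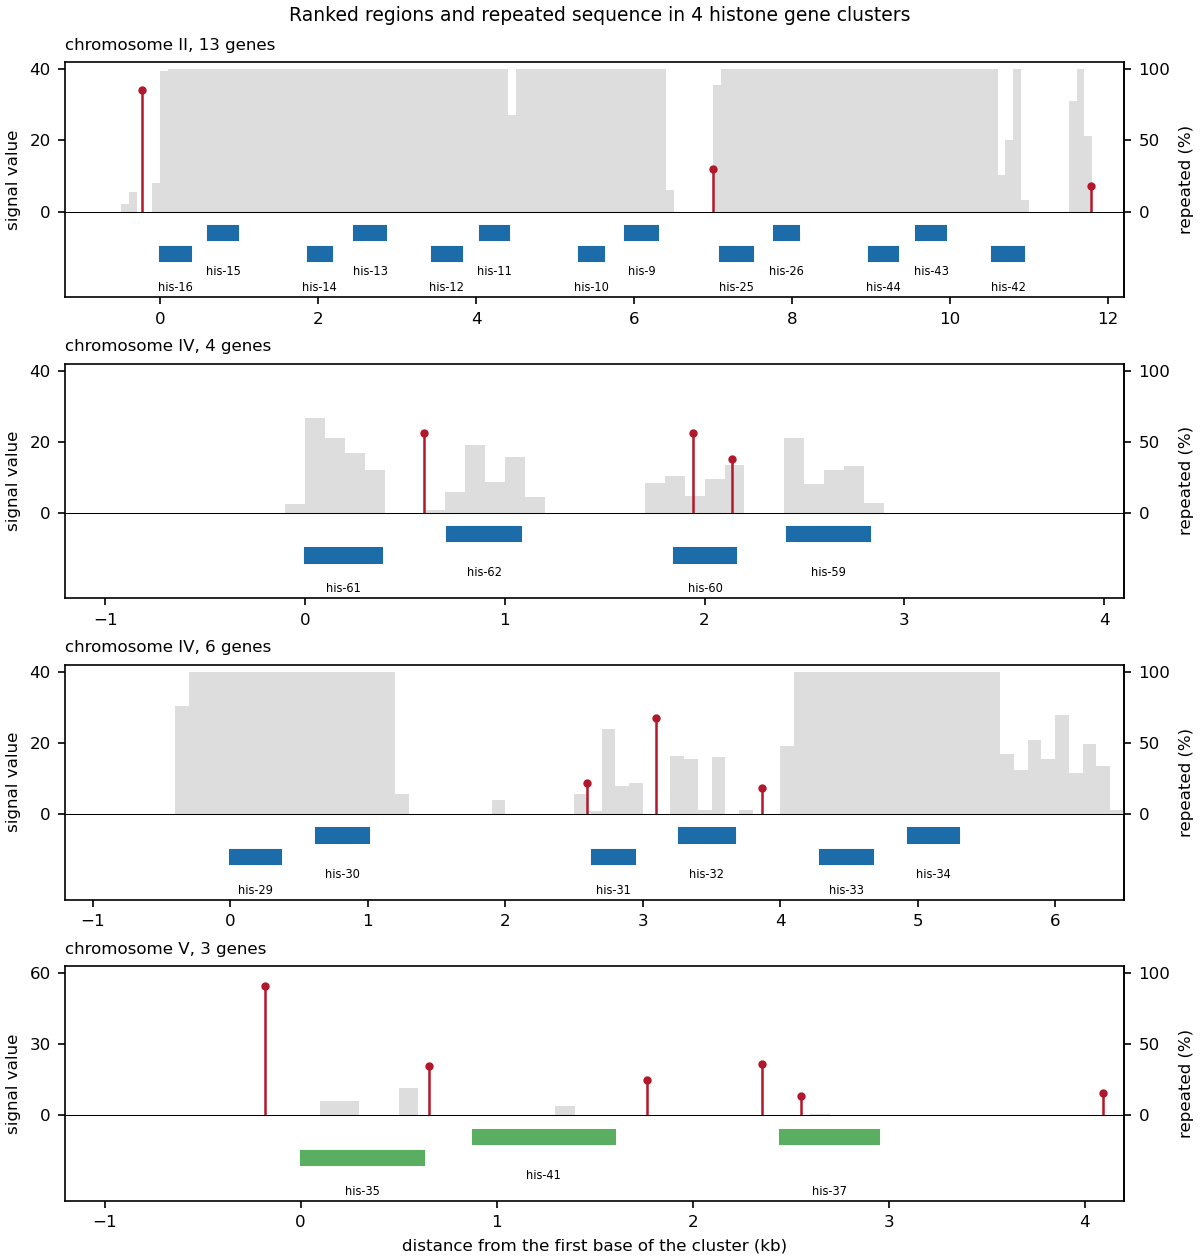
Pooled summits (red stems, left axis, signal value) and the share of 32-base words found more than once in the genome (grey bars for each 100 bp, right axis, percent) across 4 histone gene clusters, with genes as boxes (upper row read rightwards, lower row leftwards; blue replication-linked, green other core) by distance from the first base of the cluster. On chromosome II the 13-gene cluster is grey almost throughout and 1 stem of signal 12.0 lies inside it, and the cluster of 3 genes on chromosome V is almost free of grey; the stem of 54.4 to its left is outside the cluster.

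Most core genes are arranged as pairs that are read away from each other, so a region between them belongs to both. There are 31 such pairs, namely 16 of H2A with H2B, 14 of H3 with H4 and his-67 with his-68, with 5' ends 227 to 368 bp apart and a median of 258 bp. A pooled summit lay between the genes in 5 of them. All 5 were among the 11 pairs whose intervening sequence is at most 50% repeated, and 0 were among the 20 other pairs. Of 1024 divergent pairs of other genes with at most 50% repeated sequence between them, 37% had a pooled summit there. The 5 were his-67 with his-68 (74.4), his-31 with his-32 (27.1), his-61 with his-62 (22.5), his-35 with his-41 (20.7) and his-4 with his-3 (9.20), the number being the pooled signal between the genes. His-4 and his-3 were not listed there in replicate 1 and had 10.03 in replicate 2.

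Where the window was at most 50% repeated, the word ATGTGTCC and the place of the summit were set side by side. Of 19 such genes with the word, 15 had a ranked region and 13 a summit from 300 bp upstream to 200 bp downstream of the 5' end. Of 18 without the word, 11 had a ranked region and 6 a summit in that range. Of 28 genes with the word and a more repeated window, 4 had a region and 0 a summit in that range, and of the 15 without the word in such windows 2 had a region and 0 a summit in that range. The word was chosen after summit windows of genes counted here had been read, so these counts cannot serve as support for a link between word and summit. They also rest on genes that share regions and places of the word, and the differences were not tested.

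A list of 20 related genes outside the naming rule was looked at beside the histone genes. It holds histone variants of other names (htz-1, hcp-3 and cpar-1), the hairpin-binding gene cdl-1, and histone chaperones and deposition factors, and was put together by hand. Of the 20 genes, 11 had a ranked region in the pooled list, against 42.2% of all genes, and 4 a thresholded peak, against 2.49%. The 4 were lin-53, a histone-binding protein of the RbAp46/48 family (38.8, shared with nra-2), xnp-1, the ATRX homologue (36.7), htz-1, the H2A.Z variant (32.5, shared with wapl-1), and unc-85, an Asf1 histone chaperone (31.1). Cdl-1, which encodes the protein that binds the histone hairpin, had 20.7 in the pooled list, 14.5 in replicate 1 and 4.14 in replicate 2. Spt-16, of the FACT complex, had 23.0, 14.4 and 9.08. Hcp-3, the centromeric H3 variant, had 10.8 in the pooled list and 8.35 in replicate 2 and was not listed in replicate 1, and cpar-1, its close relative, was in no list. The median pooled signal of the 11 was 20.7, beside 18.0 for the histone genes and 11.0 for all genes.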

How the data were processed

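The deposited files used are 4 lists of regions on build ce11, for replicate 1, replicate 2, both replicates pooled, and a list thresholded for reproducibility. The signal value and the −log10 q-value of each region are the authors' values, as deposited, and were used only to rank and describe regions. Technical libraries were merged before calling and both replicates used the same control, per the notes deposited with the lists. The aligner and peak caller, and the cutoff of the thresholded list, were not given in the sources used here. All 689 thresholded regions were found unchanged in the pooled list. The libraries were sonicated, per the labels' protocols.

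Genes came from Ensembl release 115 of WBcel235, which is ce11, and symbols from RefSeq by WormBase gene identifier, because the 80 genes carry 58 distinct Ensembl names and 80 RefSeq symbols. At 65 of the 80 genes the annotated 5' end is the start codon, so distances can be measured from there and not from the true start of transcription. Summits, promoter windows, repeats, hairpins and motif matches were computed with Python 3.11.15, numpy 2.4.6, pandas 2.3.3 and Biopython 1.88, and the code was tested on simulated regions. A region counts for every gene whose window holds its summit.

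The members, lists and classes were chosen with earlier results of these data known. Genes named are those with a thresholded peak, the 15 of highest pooled signal below it, and those of H3.3 type and linker genes with a region; other names were chosen after their values were seen. No test between conditions or of the gene list was made, because there is 1 group and genes are not replicates of it. Lists on build ce10 were not used here.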

Additional observations from a re-analysis of the deposited data

How the results depend on the processing

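Narrowing the promoter window to 500 bp upstream and 100 bp downstream raised the median pooled signal from 18.0 to 21.3 and lowered the replication-linked genes with a ranked region from 20 to 11, since far upstream summits drop out. With each region given to the nearest 5' end alone, thresholded genes fell from 4 to 2, genes with a ranked region from 32 to 17, genes listed in both replicates from 20 to 12 and replication-linked genes listed from 20 to 6. In that setting a region shared by several genes counts once, and a summit nearer to another gene's 5' end no longer counts for the histone gene. Shares over all protein-coding genes are not given for this or the other settings. Whether histone genes stay close to all genes under them therefore cannot be told here. The upper 50% of the thresholded list by signal left 2 genes and 1 distinct summit. The 10000 highest pooled regions left 13 replication-linked genes. With 1 replicate left out, the genes in the 689 highest regions numbered 5 to 7 (7 without replicate 2), the replication-linked genes with a ranked region 13 to 19 (13 without replicate 1) and the median signal 8.06 to 11.7 (8.06 without replicate 1), in lists whose signal values are on their own scales. The count of variant and linker genes with a ranked region stayed within 1.5 times of 7 under every alternative run. No paired analysis was possible because the libraries form 1 group. Depth is unknown, so a gene in no list may have been recovered below what the lists hold.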
